A study of Arabidopsis thaliana with 12 samples.

Results

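Of 3 Arabidopsis thaliana genes whose products help build the photosystems, AT1G22700 (PYG7) was 4.43-fold higher in plants treated with DCMU, LPA19 was 1.92-fold lower, and ATAB2 stayed among the dimmest probes of the array in both groups. Both fold values are after quantile normalisation, and the means of the deposited intensities gave 3.76-fold and 2.43-fold. The 3 genes are assembly factors of photosystem I or photosystem II with an array probe annotated to that gene alone. They were picked from 692 such probes with the difference between the DCMU and control arrays already known, so their differences are given as a description, without a test. All 3 probes are described, and none was removed by a filter.

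Both groups were wild-type plants of the ecotype C24 grown in light that mainly excites photosystem I, called PSI light below. Total RNA of 6 samples came from plants in PSI light alone, and 6 samples came from plants in PSI light that also received DCMU. DCMU is a herbicide that occupies the quinone site of photosystem II and so stops linear photosynthetic electron transport. The labels do not state the dose, the duration, the age of the plants or the tissue. The deposited table held 12 columns of 3439 probes, scaled so that the top probe of a column had the value 100. Columns 1 and 2, 3 and 4, and 5 and 6 of a group were much closer to each other than to the rest. Each such pair was counted as duplicates of 1 hybridisation, so n = 3 per group. The pairing was inferred from the column values alone, since sample titles only number the columns and mention no pairs. Below, a hybridisation means such a pair of columns, and whether a pair truly shares 1 hybridisation is not known. Nothing in the labels says that the hybridisations came from separately grown plants, and p-values therefore measure only the spread between them, which may be technical. Of 9 green tissue marker genes, SBPASE and PRK of the Calvin cycle had a probe of their own and both were above the floor in all columns, while none of 6 root marker genes had one. PRK rose with DCMU (log2 difference 1.2, SE 0.23, adjusted p = 0.014 in limma's model across all probes). It also passed in all 11 other settings with every hybridisation. SBPASE had a difference of 0.42 that did not pass (adjusted p = 0.0512), but it passed in 5 of the 11 other settings. Its difference ran from 0.07 with no scaling (adjusted p = 0.751 in limma's model) to 0.71 with a trend over probe number removed (adjusted p = 0.00508 in limma's model). The 11 settings include fits over the 12 columns, as separate samples and with duplicates as a random block. The part of green tissue content in the differences below was not tested.

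Photosystems are pigment and protein complexes of the thylakoid membrane whose core subunits are encoded in the chloroplast and whose outer subunits are encoded in the nucleus. Assembly factors are mostly nuclear-encoded proteins that are not part of the finished complex: they promote translation of the core subunits, hold intermediates, or help process and repair subunits. PYG7 is a thylakoid protein with tetratricopeptide repeats, related to cyanobacterial Ycf37, without which photosystem I does not accumulate. ATAB2 is an RNA-binding protein, related to Tab2 of the alga Chlamydomonas, that is needed for synthesis of core proteins of both photosystems. LPA19 is a lumen protein related to Psb27 that is needed for maturation of the photosystem II core protein D1.

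AT1G22700 showed the largest difference of the 3. Its deposited intensity, in percent of the brightest probe of the column, ran in PSI light from 0.146 through a median of 0.163 to 0.194 over 6 columns. With DCMU it ran from 0.529 through 0.600 to 0.770. The groups did not overlap, and the lowest DCMU column was 2.72 times the highest PSI light column. The 3 hybridisations averaged 0.148, 0.181 and 0.169 in PSI light and 0.730, 0.546 and 0.600 with DCMU. The highest DCMU value thus came from columns 1 and 2 and the lowest from columns 3 and 4, and the PSI light hybridisations lay closer together. Means were 0.166 ± 0.0166 and 0.625 ± 0.0946 (SD, n = 3), a ratio of 3.76.

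LPA19 differed in the opposite direction. Its deposited intensity in PSI light ran from 1.62 through a median of 1.70 to 2.01, and with DCMU from 0.660 through 0.740 to 0.811. The groups did not overlap here either, and the lowest PSI light column was 2.0 times the highest DCMU column. Hybridisation averages were 1.98, 1.63 and 1.70 in PSI light and 0.775, 0.665 and 0.747 with DCMU. The hybridisation of columns 1 and 2 was the highest in both groups. Means were 1.77 ± 0.187 and 0.729 ± 0.0573 (SD, n = 3), which is 2.43 times higher without DCMU.

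ATAB2 was dim throughout. Its deposited intensity ranged in PSI light from 0.0392 through 0.0552 to 0.122 and with DCMU from 0.0806 through 0.120 to 0.132, so the groups overlapped. In PSI light the columns 3 and 4 stood at 0.122 and 0.0959, and the other 4 columns were at 0.0572 or below. Hybridisation averages were 0.0426, 0.109 and 0.0552 in PSI light and 0.127, 0.116 and 0.0978 with DCMU. Means were 0.0689 ± 0.0354 and 0.114 ± 0.0148 (SD, n = 3), a difference little larger than the SD in PSI light.

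**Figure D1:**
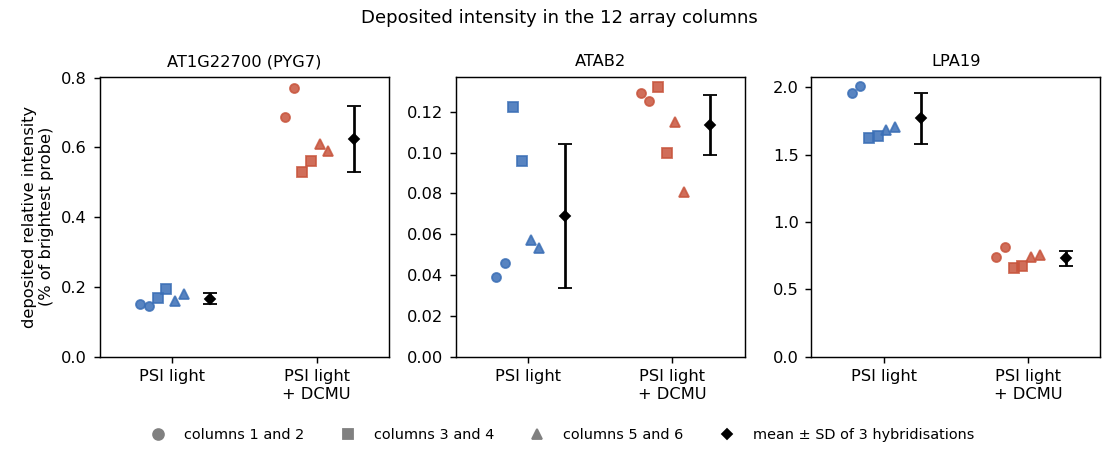
Deposited relative intensity (percent of the brightest probe of the column, a separate linear axis from 0 for each gene) of AT1G22700, ATAB2 and LPA19 in the 6 columns of each group, with marker shapes for the 3 hybridisations and black diamonds for their mean ± SD. AT1G22700 is higher in all DCMU columns, LPA19 is lower in all of them, and the ATAB2 columns of the groups overlap.

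Across all probes, 48.1% did not overlap between the groups in deposited intensity, with 12.4% higher and 35.7% lower with DCMU. Against this, 2 of the 3 genes did not overlap, 1 in each direction, and since the genes were chosen on this contrast nothing is read from that count. The probe at the top of the scale was not the same in all columns: probe 4141 was the brightest in 4 PSI light columns (numbers 1 to 4), and probe 1431 was the brightest in the rest. In the 2 PSI light columns scaled on probe 1431, AT1G22700 averaged 0.169 and LPA19 1.70. These are columns 5 and 6, which count as only 1 hybridisation. Set against the DCMU mean, AT1G22700 was then 3.69 times higher with DCMU and LPA19 2.33 times higher in PSI light, close to the values over all columns.

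The rank of a probe's brightness within its own column does not depend on how columns are scaled to each other. AT1G22700 moved from the 13.2nd ± 2.34 percentile of all 3439 probes in PSI light to the 66.0th ± 5.54 with DCMU (SD, n = 3). Its PSI light columns lay between 11.0 and 17.2 and its DCMU columns between 57.8 and 71.4, so a probe near the bottom of the array stood in the upper part of it with DCMU. LPA19 moved from the 89.7th ± 1.13 to the 72.7th ± 3.93 percentile, with columns from 88.7 to 91.2 and from 69.5 to 77.2. ATAB2 moved from the 5.84th ± 0.925 to the 9.32nd ± 0.652 percentile, and its highest PSI light column, at 7.65, passed its lowest DCMU column, at 7.62. Of the other probes, 40 climbed at least as far as AT1G22700, and 595 dropped at least as far as LPA19. These counts describe where the genes lie and are not tests.

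**Figure D2:**
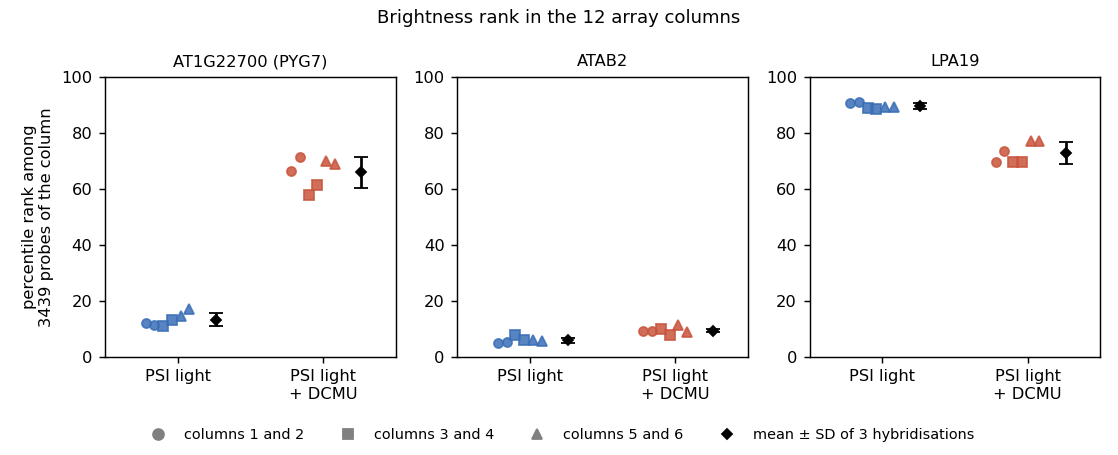
Percentile rank of the brightness of AT1G22700, ATAB2 and LPA19 among the 3439 probes of each column (0 is the dimmest), with marker shapes for the 3 hybridisations and black diamonds for their mean ± SD. AT1G22700 moves from 11.0 to 17.2 in PSI light to 57.8 to 71.4 with DCMU, LPA19 moves down from about 90 to 69.5 to 77.2, and ATAB2 stays at or below 11.4.

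For comparison with the other probes, intensities were quantile normalised, which gives all columns the same distribution, then raised where needed to the 5th percentile of the positive values (0.110, called the floor) and turned to log2. On this scale AT1G22700 went from -2.63 ± 0.19 to -0.48 ± 0.17 (SD, n = 3), a log2 difference of 2.15. None of its columns was at the floor, but its PSI light columns, at -2.83 to -2.32, lay not far above the floor of -3.19. With the floor at the 10th percentile the difference was 2.05 and the PSI light SD fell to 0.11. An offset in place of the floor gave 1.60, or 3.04-fold. Over the 3439 probes the median log2 difference was -0.06, and 58 other probes had a difference at least as high as that of AT1G22700, 12 of them among the single-gene probes. LPA19 went from 0.69 ± 0.12 to -0.25 ± 0.15, a difference of -0.94, and 353 other probes had a difference at least as low. ATAB2 was held at the floor in each of the 6 PSI light columns and in 1 DCMU column. Its log2 difference of 0.15 is therefore set in part by the floor, its SD of 0 in PSI light is the floor's, and no fold change is taken from it. The pooled SD between hybridisations was 0.18 for AT1G22700 and 0.14 for LPA19, against a median of 0.23 over all probes. In bulk RNA, fewer cells that contain a transcript and less of it per cell cannot be told apart.

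**Figure D3:**
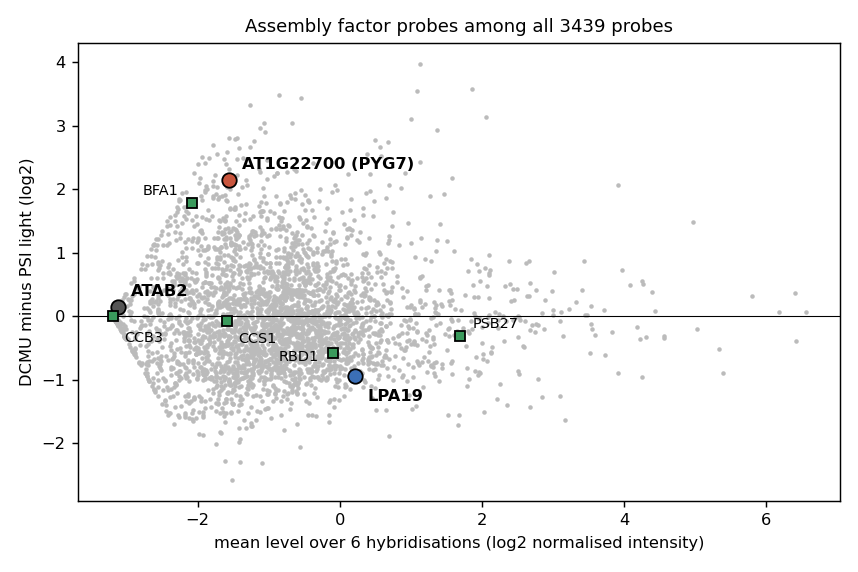
Log2 difference, PSI light with DCMU minus PSI light, against mean log2 normalised intensity over the 6 hybridisations for 3439 probes (grey), with AT1G22700, ATAB2 and LPA19 as circles and 5 other assembly factors as green squares. AT1G22700 lies at 2.15 near the upper edge of the cloud, LPA19 at -0.94 in its lower part, and ATAB2 and CCB3 at the left tip, where the floor leaves little or no difference.

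Because both genes were read in the same columns, their ratio is free of any factor that multiplies all probes of a column. A background added to all probes of a column would not cancel. The log2 ratio of AT1G22700 to LPA19 lay between -3.79 and -3.08 in the PSI light columns, and between -0.35 and -0.07 in the DCMU columns. It averaged -3.41 ± 0.29 and -0.23 ± 0.12 (SD, n = 3), a shift of 3.18, or 9.09-fold in favour of AT1G22700 with DCMU. Both genes were chosen with this contrast known and differed in opposite directions, so a large shift follows from the choice and is only a description. The ratio does not show what either gene did by itself, and different probes cannot be compared for transcript amount.

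The probes were also viewed in the order of their numbers, whose relation to the layout of the array is not known here. The 40 probes nearest to AT1G22700 in the numbering had a median log2 difference of -0.39, with the highest at 0.87. None of the 40 reached the value of AT1G22700. The gene was chosen on this contrast and only 58 others of all 3439 probes reached its value, so nothing is read from that. The 40 around LPA19 had a median of -0.31, in the same direction as LPA19, and 6 of them were at least as low. The 40 around ATAB2 had a median of 0.03 and ran from -0.95 to 2.22. When a smooth trend over probe number was removed from each column, AT1G22700 stood at 2.40 and LPA19 at -0.52, and ATAB2 at -0.04, which is the opposite sign. The part of probe position in the LPA19 difference was not tested.

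**Figure D4:**
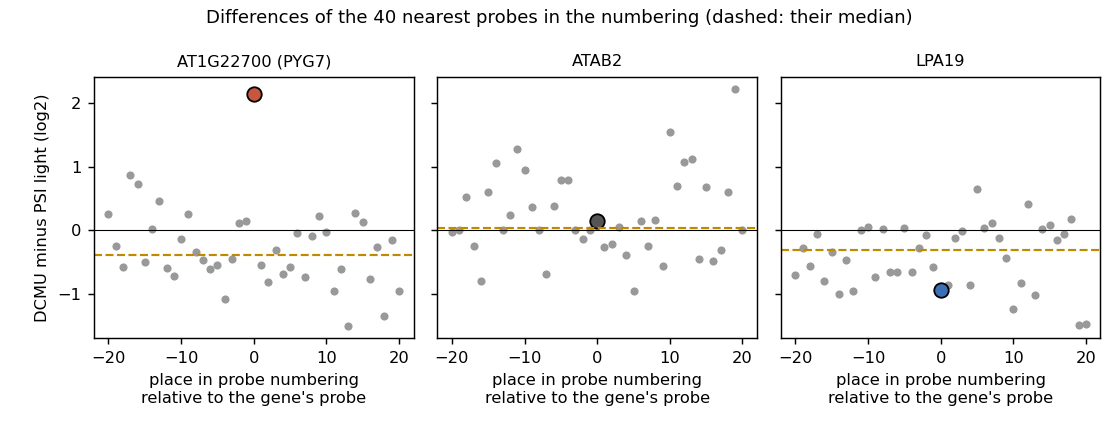
Log2 difference, PSI light with DCMU minus PSI light, of AT1G22700, ATAB2 and LPA19 (large point at 0) and of the 20 probes before and the 20 after each in the probe numbering (grey), with the neighbours' median dashed. AT1G22700 lies above all of its neighbours, while LPA19 lies within the range of its neighbours, whose median is -0.31.

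Other settings moved the sizes but not the order of the 3 genes. AT1G22700 ranged from 1.60 with an offset added in place of the floor to 2.40, and LPA19 from -1.28 with no scaling to -0.52. With no scaling the median of all probes was itself -0.32, so LPA19 lay about as far below it as after quantile normalisation. Leaving out any 1 of the 6 hybridisations gave 2.09 to 2.26 for AT1G22700 and -1.03 to -0.87 for LPA19. No single hybridisation set either value. ATAB2 ranged from -0.04 to 0.44 and was 0 with the floor at the 10th percentile, where all its columns were at the floor.

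**Figure D5:**
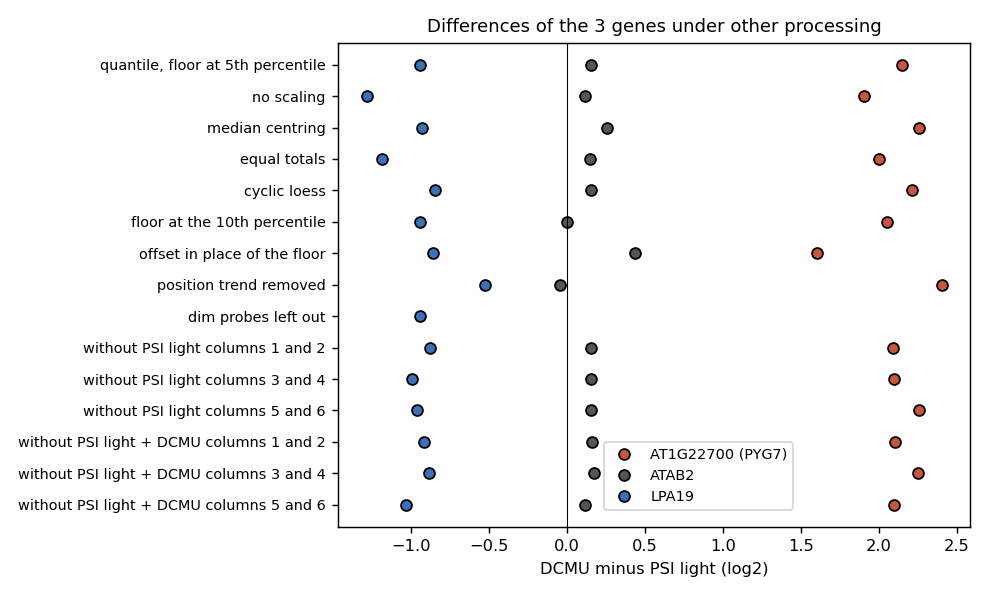
Log2 difference, PSI light with DCMU minus PSI light, of AT1G22700, ATAB2 and LPA19 under the normalisation used here (top), other settings, and without 1 hybridisation at a time. AT1G22700 stays between 1.60 and 2.40 and LPA19 between -1.28 and -0.52, while ATAB2 lies between -0.04 and 0.44; AT1G22700 and ATAB2 have no point where dim probes are left out.

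The other assembly factors of the photosystems were looked up by locus. Of 39 listed genes, 10 for photosystem I and 29 for photosystem II, 5 had a probe of their own: the 3 described above and the photosystem II factors PSB27 and RBD1. A further 6 were found on probes annotated to several genes, which are not named here. RBD1 (AT1G54500), a thylakoid rubredoxin needed for photosystem II to accumulate, fell from 0.19 ± 0.08 to -0.39 ± 0.19 log2 normalised intensity (SD, n = 3), a log2 difference of -0.58 (SE 0.11, adjusted p = 0.015 in limma's model across all probes). PSB27 (AT1G03600), the lumen protein of photosystem II to which LPA19 is related, went from 1.85 ± 0.22 to 1.54 ± 0.07, a difference of -0.30 (SE 0.13) that did not pass (adjusted p = 0.114). So 1 of the 2 fell and none rose, beside 25.0% of all probes that passed as lower with DCMU and 18.1% that passed as higher. The median log2 difference of these 2 genes was -0.44, against -0.06 over all probes. With only 2 genes, nothing is read from it about the assembly factors as a set.

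Whether each gene passed depended on 1 hybridisation. RBD1 passed in 5 of 6 fits without 1 hybridisation and narrowly missed when PSI light columns 5 and 6 were left out (-0.54, adjusted p = 0.05003 in limma's model), and it did not pass with the trend over probe number removed (-0.30, adjusted p = 0.112). PSB27 gained a call when PSI light columns 3 and 4 were dropped (-0.42, adjusted p = 0.0376 in limma's model), as it did without column 3 alone (-0.38, adjusted p = 0.0213 in limma's model). Other settings shrank its difference. It was -0.03 with median centring (adjusted p = 0.959 in limma's model) and -0.13 with the trend over probe number removed (adjusted p = 0.578 in limma's model). The log2 differences of LPA19 and PSB27 were not tested against each other. Both were below 0, at -0.94 and -0.30. RBD1 (probe 4108) lies near LPA19 (probe 4071) in the numbering but is not among the 40 probes around LPA19, whose median log2 difference was -0.31. The probes around RBD1 were not viewed. The part of probe position in the RBD1 difference was not tested.

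Among 11 assembly factors of other thylakoid complexes, 3 had a probe of their own. BFA1 (AT3G29185), which takes part in assembly of the chloroplast ATP synthase, rose from -2.98 ± 0.20 to -1.19 ± 0.21 log2 normalised intensity (SD, n = 3), a log2 difference of 1.79 (SE 0.15, adjusted p = 0.00188 in limma's model). BFA1 was at the floor in 3 of the 6 PSI light columns, so its difference is set in part by the floor, and it was 1.27 to 1.92 in the other settings in which it could be fitted and passed in each of them. CCS1 (AT1G49380), which takes part in haem attachment to cytochromes, had a difference of -0.07 (SE 0.14, adjusted p = 0.715). CCB3 (AT5G36120), a factor for haem attachment to the cytochrome b6f complex, did not leave the floor in any of the 12 columns and could show no difference. Like AT1G22700, BFA1 was dim in PSI light and brighter with DCMU.

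Few photosystem subunit genes could be read. Of 12 photosystem I, 11 photosystem II and 16 antenna genes, 4 had a probe of their own. LHCB1.5, which encodes a light-harvesting protein that feeds photosystem II, fell (log2 difference -0.58, adjusted p = 0.00881 in limma's model), but it passed in only 6 of 11 other settings of the model with all hybridisations, and stood at -0.04 with median centring (adjusted p = 0.941). This gene has near-identical copies that can share a probe. The other 3, PSAN of photosystem I and PSBY and PSBW of photosystem II, did not pass. PSBY (log2 difference 0.61, adjusted p = 0.0561) did pass in 6 of 11 other settings, with up to 0.92 (adjusted p = 0.00168) when the trend over probe number was removed. Among these 6, and among the 6 of LHCB1.5, is the fit of the 12 columns as separate samples, which counts duplicates as replicates. The 6 of PSBY also hold the fit with duplicates as a random block. PSBW (0.09, adjusted p = 0.29) depended on the scaling: it passed in 4 of 11 other settings, at 0.42 with cyclic loess, 0.64 with no scaling, 0.73 with equal totals and 0.99 with median centring.

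Likeness of pattern was measured as the root mean square difference over the 6 hybridisations, after each probe was centred on its own mean, among 544 single-gene probes with no value at the floor. Nearest to AT1G22700 were AT5G33390 (0.20 on the log2 scale), AT3G06870 (0.24) and AT5G42680 (0.24), against a median of 1.19 over the 544. Their log2 differences were 1.94, 2.44 and 1.99. Nearest to LPA19 were AT1G11800 (0.08), AT1G02020 (0.09) and AT1G65090 (0.11), with log2 differences of -0.83, -1.0 and -0.82 and a median likeness of 0.49. Nearest to ATAB2 were AT2G47830 (0.06), the photosystem II subunit gene PSBW (0.07) and AT2G36920 (0.08), with differences of 0.22, 0.09 and 0.12, but ATAB2 was at the floor in most columns, and the small difference of PSBW was not found with the other ways of scaling, so this likeness is not informative. The measure mostly reflects the size of the difference between the groups.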

How the data were processed

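The authors deposited 1 linear intensity per probe and column. Per the labels, the samples are total RNA; how the arrays were hybridised and read, and whether background was subtracted, is not stated there. The column medians differed (0.386 to 0.584), so the scaling to the top probe had not brought the columns to a common level. They were therefore normalised between arrays. The setting called no scaling used the deposited values as they were. Arrays have no read depth, and their number limits the precision.

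Values were quantile normalised, floored and turned to log2, duplicates were averaged, and PSI light with DCMU was compared with PSI light in limma 3.58.1 (R 4.3.3) with Benjamini-Hochberg adjustment over all probes and a threshold of 0.05. Spearman correlations were 0.976 to 0.991 between duplicates and 0.921 to 0.960 between other columns of a group. In all, 1483 of 3439 probes (43.1%) passed, 624 higher and 859 lower; there were 425 higher and 1172 lower with no scaling, 474 and 1058 with equal totals, and 836 and 769 with the trend over probe number removed. The model was tested on simulated data.

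Probes were named through the platform annotation, with symbols updated by gene ID from the TAIR10.1 table: 692 had 1 gene (2 of them without an entry in the reference), 870 several and 1877 none. Coordinates are left out because no build is named in the files. The 3 genes and the 8 gene lists (104 genes, by locus) were chosen with earlier results of these data known. Named were the 3 genes, every listed assembly factor with a probe of its own, at most 2 genes per other list by smallest p, and the 3 nearest single-gene probes to each of the 3 genes. Python 3.11.15 with matplotlib 3.10.9 drew the figures.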

Additional observations from a re-analysis of the deposited data

Results flagged for a closer look

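Among 44 groups of 6 columns (the 3 genes, the listed genes and the genes of like pattern, each in both groups of samples), 3 held a column far from the other 5 on the log2 normalised scale. Chance alone gives about 1 in 20 for independent columns, and these columns come in duplicates. PSBW in PSI light stood at 4.1 in column 4, with the others at 4.42 to 4.48 (gap over range 0.837). PSBW with DCMU stood at 4.51 in column 2, while the other 5 columns all had the value 4.48 (gap over range 1). Quantile normalisation gives columns in which a probe has the same rank the same value, so this gap reflects a different rank in 1 column and says little about its size. AT5G42680 in PSI light stood at -1.59 in column 3, against -1.02 to -0.73 (gap over range 0.659). None of the 3 genes AT1G22700, ATAB2 and LPA19 had such a column, although a whole hybridisation that stands apart would not be seen this way, since its duplicates shift together.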

How the results depend on the processing

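AT1G22700 (2.15) moved by more than its spread to 1.91 with no scaling, 1.60 with an offset and 2.40 with the trend over probe number removed. LPA19 (-0.94) moved to -1.28 with no scaling, -1.19 with equal totals and -0.52 with the trend removed. ATAB2 (0.15) moved to 0.26 with median centring, 0.44 with an offset and 0 with the higher floor, and to -0.043 with the trend removed, where the cause was not tested. Without 1 column or hybridisation ATAB2 was 0.090 to 0.216. Percentile ranks moved by less than their spread among single-gene probes and without 1 hybridisation. With dim probes left out 829 probes passed, with fewer tested, and AT1G22700 and ATAB2 gave no value. The 12 columns as separate samples gave 2109, and without 1 column or hybridisation 1144 to 1486 passed. Of PSB27 and RBD1, 2 passed over 12 columns, 0 with the trend removed, and 0 to 2 without 1 column or hybridisation. CCS1 turned to 0.020 with median centring, ran from -0.167 to 0.019 without 1 column and from -0.182 to 0.055 without 1 hybridisation. The replicate block gave 1394 probes past the threshold (580 higher and 814 lower). In this balanced design the block cannot change a log2 difference, so nothing is read from the unchanged differences. Deviations of same-numbered hybridisations correlated at 0.0989 to 0.306, not all above 0.1, so pairing by number was not assumed, although every hybridisation correlated best with its own number. The floor limits dim probes, and 167 of them were at it throughout.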
